A study of Mus musculus with 6 samples.

Results

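The 10 genes described here encode LIM-domain proteins of the actin cytoskeleton, namely *Csrp1* and *Csrp2*, *Fhl1*, *Fhl2* and *Fhl3*, *Crip1* and *Crip2*, *Pdlim5* and *Pdlim7*, and *Zyx*. They were chosen by their symbols, and each symbol matched 1 of the 18112 genes in the deposited table. Primary vascular smooth muscle cells (VSMCs) were grown from the medial layer of the aorta of C57BL/6 mice, after removal of endothelium and adventitia, with poly-A RNA sequenced for 3 samples of *Smyd2* fl/fl and 3 of *Smyd2* SMC-/-. *Smyd2* encodes a lysine methyltransferase, and the comparison addresses which RNAs differ when smooth muscle cells carry its deletion. The authors deposited FPKM, the fragments of a gene scaled by the length of its transcripts and by the fragments of the library. Both groups were homozygous for a floxed *Smyd2* allele, *Smyd2* SMC-/- mice also carried a Cre recombinase driven by the *Tagln* (SM22α) promoter, and *Smyd2* fl/fl littermates served as controls, all at 8 to 10 weeks of age. The sources differ on the culture, since the labels give passage 6 in medium with serum and the methods give passage 4 with starvation overnight. The labels number the samples of each group as replicates 1, 2 and 3 and do not say whether these were separate animals or cultures, so that p-values measure the spread between these samples, which may be technical. Values of 3 libraries are given in the order of replicates 1, 2 and 3.

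The LIM domain is a zinc-binding fold that binds other proteins, and most cytoskeletal LIM proteins use it to attach to actin filaments, α-actinin or focal adhesions. In smooth muscle such proteins sit on dense bodies, stress fibers and adhesion plaques, where contractile force is carried to the matrix. Several of them, among them the FHL and CSRP proteins, also enter the nucleus and act as cofactors of transcription, including that driven by serum response factor.

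By an estimate from low FPKM values, the libraries held about 18600000, 20050000 and 19800000 fragments in *Smyd2* fl/fl and about 17350000, 19500000 and 19200000 fragments in *Smyd2* SMC-/-. *Smyd2* itself stood at 7.87, 3.10 and 3.0 FPKM in *Smyd2* fl/fl against 1.67, 0.40 and 0.80 FPKM in *Smyd2* SMC-/-. The groups did not overlap, with *Smyd2* SMC-/- low throughout, and replicate 1 was the highest library of each group. Groups were compared with limma on log2(FPKM + 1) for the 12565 genes whose mean reached 0.5 FPKM, with p-values adjusted over all of them and calls made at an adjusted p under 0.05. On this scale fold changes of genes with low FPKM come out too small. The log2 fold change of *Smyd2* was −1.48 (standard error 0.389), with an adjusted p of 0.105 in limma, of 0.0189 when replicate number entered as a block, and of 0.00126 in replicates 2 and 3 alone.

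Replicate 1 of each group stood apart from replicates 2 and 3. Across the genes, Spearman's rho was 0.992 between replicates 2 and 3 of *Smyd2* fl/fl and 0.989 between those of *Smyd2* SMC-/-, whereas replicate 1 reached at most 0.934 and 0.925 with the others of its group. Replicate 1 of *Smyd2* fl/fl was as close to replicate 1 of *Smyd2* SMC-/- (rho 0.931) as to its own group. Results are therefore given for all libraries, with a block for the replicate number where that changes a call, and for replicates 2 and 3 alone, an alternative in which each group has 2 libraries. No test was possible on replicate 1 alone, with 1 library in each group.

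Markers of smooth muscle were incomplete in these cultures. Of 8 listed smooth muscle genes, 5 had a mean of at least 0.5 FPKM. The most abundant was *Acta2*, the actin of smooth muscle, at a mean of 476 FPKM. *Des*, also listed for striated muscle, and *Myh11* and *Myocd*, which define differentiated smooth muscle, stayed under 0.5 FPKM in every library. The summed level of the list was 922, 821 and 814 FPKM in *Smyd2* fl/fl against 263, 429 and 376 FPKM in *Smyd2* SMC-/-, and *Acta2* was the member of the list that fell in limma (log2 fold change −1.55, adjusted p = 0.00803). *Acta2* carried most of the sum, and within replicate 2 *Tagln*, *Cnn1*, *Smtn* and *Lmod1* were higher in *Smyd2* SMC-/-, *Lmod1* within replicate 3 too. All 7 fibroblast genes had a mean of at least 0.5 FPKM, although *Lum* stood at 0 FPKM in *Smyd2* fl/fl replicate 1. *Col1a1* was the most abundant at a mean of 664 FPKM. Summed levels were 618, 960 and 918 FPKM in *Smyd2* fl/fl against 1380, 1270 and 915 FPKM in *Smyd2* SMC-/-. *Col1a1* and *Dcn* carried most of these sums, and both were higher in *Smyd2* SMC-/- within each replicate number, as was *Lum*, whereas *Pdgfra*, *Thy1*, *Pi16* and *Dpt* were lower within each. *Dpt*, the gene of dermatopontin, fell from 144, 90.3 and 65.5 FPKM to 3.31, 1.15 and 0.63 FPKM (log2 fold change −5.28, adjusted p = 0.00417 in limma), and no other gene of the fibroblast list passed the test, with or without the block. Of 7 endothelial genes, *Kdr* alone reached the mean of 0.5 FPKM, and *Cdh5* and *Tie1* stayed at or below 0.01 FPKM. The list summed to 1.42, 1.83 and 2.05 FPKM in *Smyd2* fl/fl against 1.75, 5.41 and 2.99 FPKM in *Smyd2* SMC-/-, where *Kdr* was higher and *Pecam1* lower within each replicate number. Of 6 macrophage genes, 4 reached that mean, the most abundant being *Cd14*, and the defining *Ptprc* and *Adgre1* stayed at or below 0.02 FPKM. The sums were 42.6, 30.0 and 26.7 FPKM in *Smyd2* fl/fl against 40.9, 18.3 and 22.7 FPKM in *Smyd2* SMC-/-. *Cd14* carried most of these sums and, like *Lyz2*, was lower in *Smyd2* SMC-/- within each replicate number, whereas *Cd68* was mixed. *Csf1r* was higher within each, at 0.58, 0.53 and 0.48 FPKM in *Smyd2* fl/fl against 1.66, 1.42 and 1.14 FPKM in *Smyd2* SMC-/-. Of 8 genes of striated muscle, 5 had values and 1 reached that mean, *Tnnt2*, a troponin, which carried almost all of the sums of 29.2, 8.39 and 8.19 FPKM in *Smyd2* fl/fl against 3.49, 4.16 and 4.47 FPKM in *Smyd2* SMC-/-, with *Myh7* and *Ckm* at or below 0.05 FPKM. In these bulk libraries fewer cells of a type and less RNA per cell cannot be told apart. The part of the smooth muscle and fibroblast levels in the results on the LIM-domain genes was not tested.

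All 10 LIM-domain genes passed the filter on low FPKM. In limma 1 of them, *Csrp1*, was lower in *Smyd2* SMC-/- and 0 were higher, beside 1.21% of all tested genes lower and 1.23% higher (152 and 154 of 12565). Before adjustment, limma had 3 members lower and 1 higher at p under 0.05, beside 11.2% and 9.16% of all genes. Rescaling to TPM shifted log2 fold changes by 0.11 at the median. On that scale 99 genes were lower and 247 higher, and *Csrp1* was still the member called. With a block for the replicate number, *Csrp1*, *Fhl3* and *Pdlim7* were lower and *Fhl1* was higher in limma, where 5.72% of all genes were lower and 4.72% higher. In replicates 2 and 3 alone, 4 members were lower (*Csrp1*, *Csrp2*, *Fhl3* and *Pdlim7*) and 3 were higher (*Fhl1*, *Fhl2* and *Zyx*) in limma, beside 17.2% and 11.9% of all genes. The groups did not overlap in 3 members with *Smyd2* SMC-/- below (*Csrp1*, *Fhl3* and *Pdlim7*) and in 0 with *Smyd2* SMC-/- above, beside 15.0% and 13.1% of all genes. Within same-numbered pairs of libraries, 5 members had the lower value in the *Smyd2* SMC-/- library of all 3 pairs (*Csrp1*, *Crip1*, *Crip2*, *Fhl3* and *Pdlim7*), *Fhl1* was higher in each, and 4 were mixed, beside 29.3% of all genes lower and 25.8% higher in all 3. The median log2 fold change of the 10 members was −0.41, beside −0.02 for all tested genes, and −0.51 beside −0.06 in replicates 2 and 3 alone. It was −0.24 without *Smyd2* fl/fl replicate 1, −0.26 without *Smyd2* SMC-/- replicate 1 and −0.27 without *Smyd2* SMC-/- replicate 2. By pair, the median difference of the members was −0.70 in replicate 1, −0.44 in replicate 2 and −0.22 in replicate 3, and that of all genes 0.05, −0.08 and −0.04.

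The members covered a wide range of levels. In *Smyd2* fl/fl the mean FPKM ran from *Zyx* (714 ± 113, SD, n = 3) and *Csrp1* (354 ± 26.4, SD, n = 3) down to *Csrp2* (18.9 ± 4.82, SD, n = 3) and *Crip2* (10.6 ± 8.20, SD, n = 3). *Zyx* and *Csrp1* were each separated from the next member by all libraries, whereas from *Crip1* down through *Pdlim7*, *Fhl2*, *Pdlim5*, *Fhl3*, *Fhl1* and *Csrp2* to *Crip2* every neighbour overlapped the next. In *Smyd2* SMC-/- the order was *Zyx*, *Fhl1*, *Csrp1*, *Crip1*, *Pdlim7*, *Fhl2*, *Pdlim5*, *Csrp2*, *Fhl3* and *Crip2*, with *Zyx* above all others in each library, *Fhl1* and *Csrp1* overlapping, and *Crip2* below *Fhl3* in all 3 libraries. *Zyx* lay between the percentiles 99.5 and 99.9 of the genes in the table in every library, and *Crip2* between 43.4 and 77.4. Together the 10 genes summed to 1302, 1529 and 1495 FPKM in *Smyd2* fl/fl against 885, 1952 and 1827 FPKM in *Smyd2* SMC-/-. *Zyx* made up 45.1%, 48.8% and 54.0% of that sum in the former and 56.6%, 64.3% and 68.0% in the latter. *Csrp1* made up 27.8%, 24.6% and 21.7% in *Smyd2* fl/fl against 14.4%, 9.23% and 7.87% in *Smyd2* SMC-/-.

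**Figure D1:**
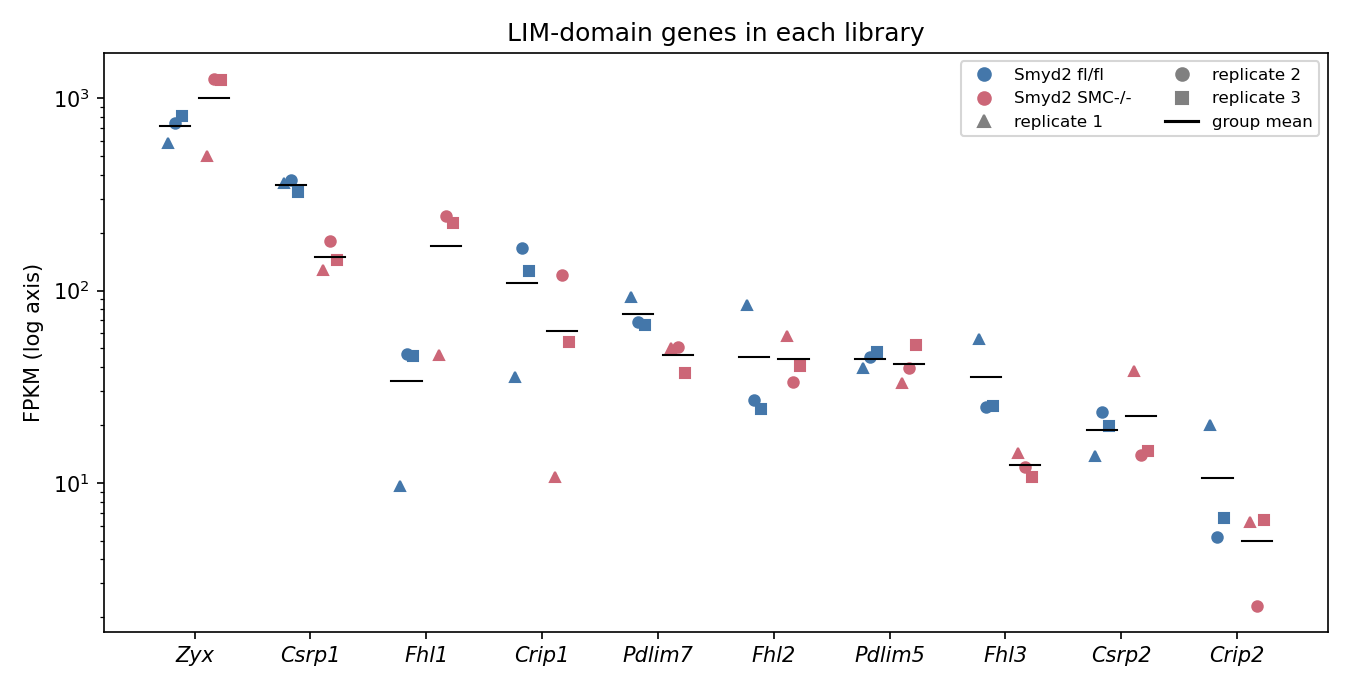
FPKM of the 10 LIM-domain genes on a log axis, ordered by their mean over the 6 libraries. Blue marks are *Smyd2* fl/fl and red marks *Smyd2* SMC-/- libraries, shapes give the replicate number, and black lines are group means of 3 libraries. The groups of *Csrp1*, *Fhl3* and *Pdlim7* do not overlap.

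CSRP1 and CSRP2 are small proteins of paired LIM domains that bind α-actinin and zyxin, and CSRP1 is abundant in smooth muscle. *Csrp1* lies on chromosome 1 of GRCm38 from 135720061 to 135752232 on the plus strand, under NCBI Gene number 13007. It had 362, 376 and 325 FPKM in *Smyd2* fl/fl against 127, 180.2 and 144 FPKM in *Smyd2* SMC-/-. All 3 *Smyd2* SMC-/- libraries were low, and the groups did not overlap (exact permutation p = 0.1, two-sided, the lowest that 3 against 3 can give). *Csrp1* fell by 1.24 on the log2 scale (standard error 0.162, adjusted p = 0.0183 in limma). Within replicates 1, 2 and 3 the difference was −1.50, −1.06 and −1.17, and in replicates 2 and 3 alone *Csrp1* fell by 1.11 (adjusted p = 0.00176 in limma). The call was lost in limma without *Smyd2* fl/fl replicate 2 (adjusted p = 0.10), without *Smyd2* fl/fl replicate 3 (0.0914) and without *Smyd2* SMC-/- replicate 3 (0.114), while the log2 fold change stayed between −1.38 and −1.13.

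*Csrp2*, on chromosome 10 from 110919789 to 110939622, encodes the CSRP protein known from vascular smooth muscle of developing and injured arteries. It had 13.8, 23.3 and 19.8 FPKM in *Smyd2* fl/fl against 38.0, 14.0 and 14.7 FPKM in *Smyd2* SMC-/-. Replicate 1 ran against the others in both groups, being the lowest library of *Smyd2* fl/fl and the highest of *Smyd2* SMC-/-, and the groups overlapped. Over all libraries limma gave a log2 fold change of 0.10 and an adjusted p of 0.930 (standard error 0.401). In replicates 2 and 3 alone its sign turned, and *Csrp2* was lower in *Smyd2* SMC-/- by −0.55 on the log2 scale (standard error 0.114, adjusted p = 0.0109 in limma), where replicate 1 had a difference of 1.40. It was also negative without *Smyd2* fl/fl replicate 1 (−0.10) and without *Smyd2* SMC-/- replicate 1 (−0.35), and reached 0.34 without *Smyd2* SMC-/- replicate 2. *Csrp2* made up 3.66%, 5.83% and 5.73% of the summed FPKM of both genes in *Smyd2* fl/fl against 22.97%, 7.20% and 9.25% in *Smyd2* SMC-/-. This share did not overlap between the groups and was the higher in *Smyd2* SMC-/-. Within replicates 2 and 3 both genes were nevertheless lower in *Smyd2* SMC-/-. There *Csrp1* differed by −1.06 and −1.17 and *Csrp2* by −0.70 and −0.41 on the log2 scale.

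The FHL proteins are built almost wholly of LIM domains, bind integrins and actin, and shuttle to the nucleus. *Fhl1*, on chromosome X from 56731787 to 56793346, encodes the member best known from muscle growth and inherited myopathies. It had 9.58, 46.9 and 45.6 FPKM in *Smyd2* fl/fl against 46.3, 243 and 225 FPKM in *Smyd2* SMC-/-. Replicate 1 was low in both groups, so that *Smyd2* SMC-/- replicate 1 stood at the level of *Smyd2* fl/fl replicates 2 and 3, and the groups overlapped (two-sided exact permutation p = 0.2). Within each replicate number, however, FPKM + 1 was 4.47, 5.09 and 4.86 times as high in *Smyd2* SMC-/-. The log2 fold change was 2.26 (standard error 0.829) with an adjusted p of 0.200 in limma, while the block brought the standard error to 0.0947 and the adjusted p to 0.00284. In replicates 2 and 3 alone *Fhl1* rose by 2.31 on the log2 scale (standard error 0.105, adjusted p = 1.7e-05 in limma). With a library of either group left out in turn, without the block, the log2 fold change ran from 1.54 to 3.03.

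*Fhl3*, on chromosome 4 from 124700701 to 124708611, encodes an actin-binding member found in muscle. It had 56.3, 24.8 and 25.1 FPKM in *Smyd2* fl/fl against 14.3, 12.1 and 10.7 FPKM in *Smyd2* SMC-/-. The *Smyd2* SMC-/- libraries lay close together and below all *Smyd2* fl/fl libraries, of which replicate 1 was the highest (two-sided exact permutation p = 0.1). The log2 fold change was −1.35 (standard error 0.327) with an adjusted p of 0.0839 in limma, and the adjusted p was 0.0283 with the block. Without *Smyd2* fl/fl replicate 1 the log2 fold change was −0.97 and limma's adjusted p 0.0499, and in replicates 2 and 3 alone they were −1.07 and 0.000475. Of the 1727 stretches of 50 bases in the *Fhl3* transcripts, 80 (4.63%) were shared with the gene *Gm13898*, and fragments from these cannot be assigned to either gene with certainty.

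*Fhl2*, on chromosome 1 from 43123074 to 43196984 on the minus strand, encodes a cofactor of several transcription factors and a partner of integrins. It had 84.5, 27.1 and 24.1 FPKM in *Smyd2* fl/fl against 58.4, 33.5 and 40.7 FPKM in *Smyd2* SMC-/-. Replicate 1 was the highest library of each group, and the groups overlapped. *Fhl2* did not pass in limma (log2 fold change 0.17, standard error 0.486, adjusted p = 0.895), and its sign turned negative without *Smyd2* fl/fl replicate 2 (−0.07), *Smyd2* fl/fl replicate 3 (−0.15) or *Smyd2* SMC-/- replicate 1 (−0.05) and reached 0.73 without *Smyd2* fl/fl replicate 1. *Fhl2* was lower in *Smyd2* SMC-/- by −0.53 within replicate 1 and higher by 0.30 and 0.73 within replicates 2 and 3, and in the latter alone it rose by 0.52 (adjusted p = 0.0186 in limma).

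The makeup of the FHL family shifted with both the group and replicate 1, as the plot of their shares shows. *Fhl1* made up 6.37%, 47.5% and 48.1% of the summed FPKM of the 3 genes in *Smyd2* fl/fl against 38.9%, 84.2% and 81.4% in *Smyd2* SMC-/-. *Fhl3* made up 37.4%, 25.1% and 26.5% in *Smyd2* fl/fl against 11.99%, 4.19% and 3.86% in *Smyd2* SMC-/-, with no overlap between the groups. *Fhl2* made up the largest share in replicate 1 of both groups, at 56.2% and 49.1%, and between 11.6% and 27.4% in the other libraries. The sum of the 3 genes was 150.4, 98.7 and 94.8 FPKM in *Smyd2* fl/fl against 119, 289 and 277 FPKM in *Smyd2* SMC-/-.

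**Figure D2:**
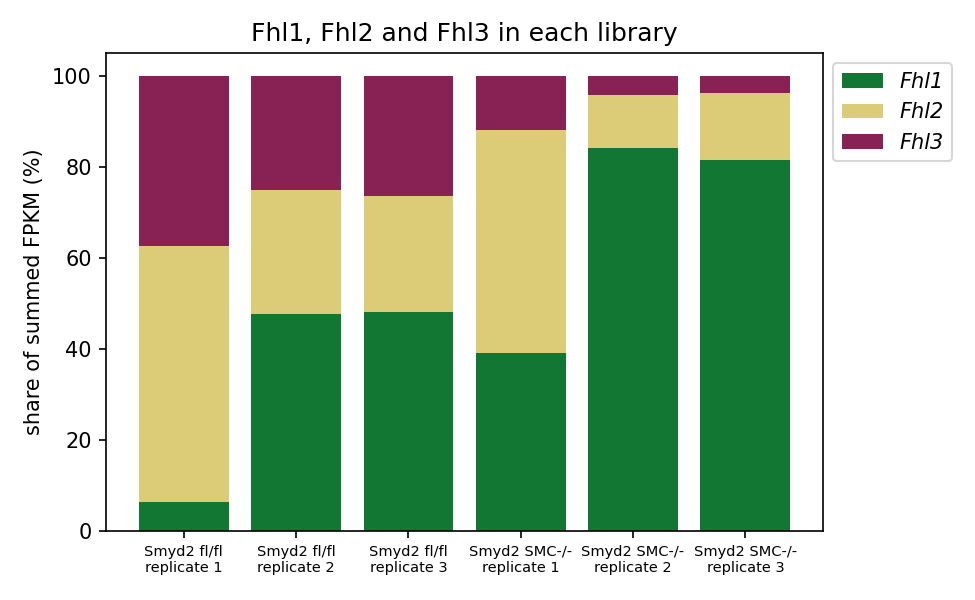
Share of *Fhl1*, *Fhl2* and *Fhl3* in their summed FPKM (%), as stacked bars, 1 bar for each of the 6 libraries. The share of *Fhl1* is higher in *Smyd2* SMC-/- than in the *Smyd2* fl/fl library of the same number in all 3 replicates.

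Ratios of paralogs within a library cancel a factor common to that library, and 6 pairs were compared. The log2 ratio of *Fhl1* to *Fhl3*, taken on FPKM + 1, was −2.44, 0.90 and 0.84 in *Smyd2* fl/fl against 1.63, 4.22 and 4.28 in *Smyd2* SMC-/-. The groups did not overlap, and the difference of the means was 3.61 (two-sided exact permutation p = 0.1, adjusted over the 6 pairs p = 0.2), or from 2.51 without *Smyd2* fl/fl replicate 1 to 4.48 without *Smyd2* SMC-/- replicate 1. The ratio of *Fhl2* to *Fhl3* was higher in *Smyd2* SMC-/- by 1.52 and that of *Csrp1* to *Csrp2* lower by −1.34, each without overlap and with the same exact p of 0.1 and adjusted p of 0.2. Replicate 1 carried much of the difference for *Csrp1* to *Csrp2*, which was −2.90, −0.36 and −0.77 within replicates 1, 2 and 3, −0.78 without *Smyd2* SMC-/- replicate 1 and −0.56 in replicates 2 and 3 alone. The differences for *Fhl1* to *Fhl2* (2.09) and *Pdlim5* to *Pdlim7* (0.59) had an exact permutation p of 0.3 and an adjusted p of 0.36, and without *Smyd2* fl/fl replicate 1 they were 0.81 and 0.36, with 0.28 for *Pdlim5* to *Pdlim7* without *Smyd2* SMC-/- replicate 3. For *Crip1* to *Crip2* the difference was −0.27 (exact permutation p = 0.9, adjusted p = 0.9), and it took either sign with single libraries left out. Taken as same-numbered pairs of libraries, the exact permutation p was 0.75 for *Crip1* to *Crip2* and 0.25, the smallest that 3 pairs allow, for the other 5.

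CRIP1 and CRIP2 are small cysteine-rich LIM proteins, and CRIP2 is known from heart and vessel wall. *Crip1* lies on chromosome 12 from 113146316 to 113153879 and *Crip2* beside it from 113140236 to 113145506, both on the plus strand. *Crip1* had 35.4, 166 and 127 FPKM in *Smyd2* fl/fl against 10.7, 121 and 54.0 FPKM in *Smyd2* SMC-/-. Replicate 1 was the lowest library in both groups, and the groups overlapped (two-sided exact permutation p = 0.5). The log2 fold change was −1.10 (standard error 0.942) with an adjusted p of 0.578 in limma, or a standard error of 0.236 and an adjusted p of 0.0504 with the block. The differences within replicates 1, 2 and 3 were −1.64, −0.45 and −1.22, and the log2 fold change ran from −1.86 without *Smyd2* SMC-/- replicate 2 to −0.17 without *Smyd2* SMC-/- replicate 1. *Crip2* had 20.1, 5.23 and 6.59 FPKM in *Smyd2* fl/fl against 6.23, 2.30 and 6.43 FPKM in *Smyd2* SMC-/-, or about 507, 143 and 177 fragments against about 147, 61 and 168 fragments. *Smyd2* fl/fl replicate 1 stood above the rest, and the groups overlapped. *Crip2* did not pass in limma (log2 fold change −0.83, standard error 0.533, adjusted p = 0.449), with differences of −1.54, −0.92 and −0.03 within the replicate numbers and a log2 fold change of −0.29 without *Smyd2* fl/fl replicate 1. *Crip1* and *Crip2* were not called with the block or in replicates 2 and 3 alone, where the adjusted p in limma was 0.254 and 0.467. In *Smyd2* fl/fl the neighbouring genes took opposite courses in replicate 1, with *Crip1* at 0.249 times and *Crip2* at 3.06 times the mean of replicates 2 and 3, as ratios of FPKM + 1, whereas in *Smyd2* SMC-/- replicate 1 of *Crip2* lay between replicates 2 and 3.

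PDLIM5 and PDLIM7 belong to the enigma family, which joins a PDZ domain that binds α-actinin to LIM domains that bind kinases and other signalling proteins. *Pdlim7*, on chromosome 13 from 55495795 to 55513676 on the minus strand, had 92.9, 68.6 and 66.3 FPKM in *Smyd2* fl/fl against 50.3, 51.1 and 37.4 FPKM in *Smyd2* SMC-/-. The groups did not overlap, with *Smyd2* SMC-/- low (two-sided exact permutation p = 0.1). The log2 fold change was −0.70 (standard error 0.192) with an adjusted p of 0.115 in limma, or a standard error of 0.126 and an adjusted p of 0.0380 with the block. In replicates 2 and 3 alone *Pdlim7* fell by 0.61 on the log2 scale (adjusted p = 0.0199 in limma). The microRNA gene *Mir6945* lies within its exons on the same strand and shared 19 of 5205 stretches of 50 bases with it. *Pdlim5*, on chromosome 3 from 142239590 to 142395696 on the minus strand, had 39.7, 45.2 and 47.9 FPKM in *Smyd2* fl/fl against 32.9, 39.8 and 52.0 FPKM in *Smyd2* SMC-/-. The groups overlapped, with the highest and the lowest library both in *Smyd2* SMC-/-. The difference of −0.11 on the log2 scale (standard error 0.188, limma's adjusted p 0.801) turned positive with rescaling to TPM (0.011) and without *Smyd2* SMC-/- replicate 1 (0.041), and was −0.28 without *Smyd2* SMC-/- replicate 3.

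Zyxin, a phosphoprotein of focal adhesions and stress fibers that recruits Ena/VASP proteins, is encoded by *Zyx* on chromosome 6 from 42349630 to 42360213. It had 588, 746 and 808 FPKM in *Smyd2* fl/fl against 501, 1255 and 1242 FPKM in *Smyd2* SMC-/-. Replicates 2 and 3 of *Smyd2* SMC-/- were the highest of the 6 libraries and replicate 1 the lowest, so that the groups overlapped. The 6 libraries together gave a log2 fold change of 0.38 with an adjusted p of 0.637 in limma (standard error 0.373), and within the replicate numbers the difference was −0.23, 0.75 and 0.62. In replicates 2 and 3 alone *Zyx* rose by 0.69 (standard error 0.128, adjusted p = 0.00739 in limma). *Zyx* had a log2 fold change of 0.82 without *Smyd2* SMC-/- replicate 1, 0.16 without replicate 2 or replicate 3 of that group, 0.25 without *Smyd2* fl/fl replicate 1 and 0.70 with quantile normalization. Exons of *Epha1* overlap those of *Zyx* on the opposite strand, and the counting is not stated to use strand. *Epha1* was listed at 9.26, 10.6 and 11.6 FPKM in *Smyd2* fl/fl against 2.28, 6.05 and 4.29 FPKM in *Smyd2* SMC-/-, far below *Zyx*.

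**Figure D3:**
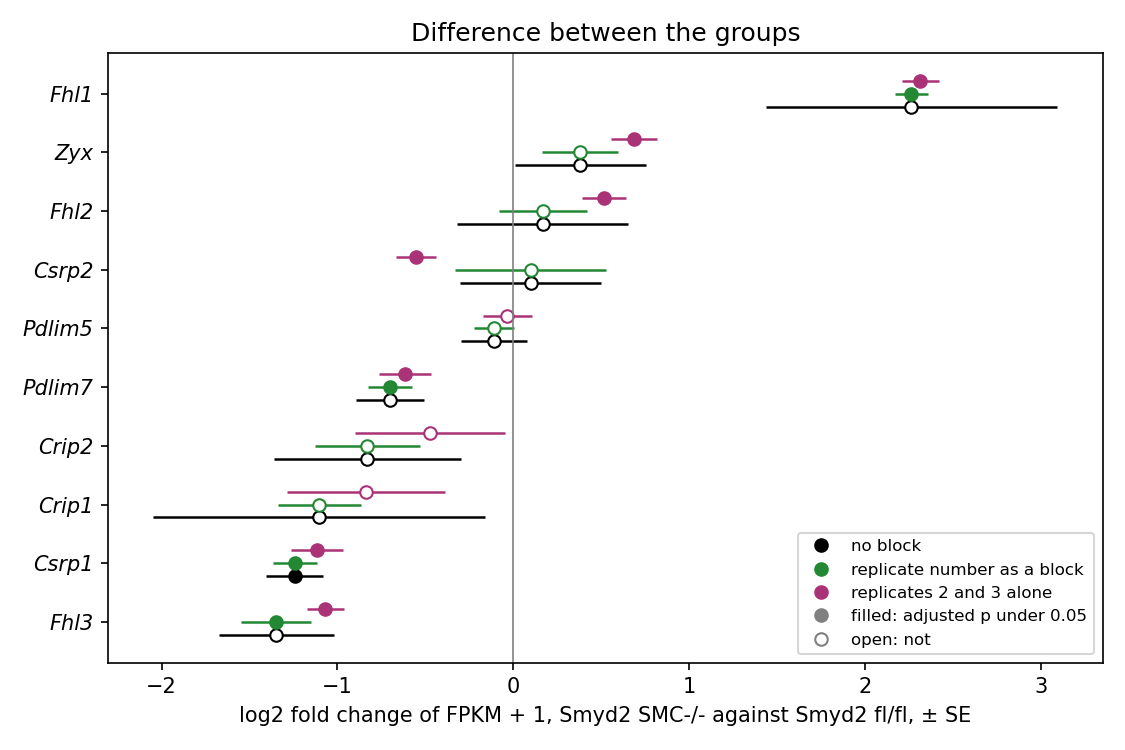
Log2 fold change of FPKM + 1, *Smyd2* SMC-/- against *Smyd2* fl/fl, with its standard error (bars), for each LIM-domain gene. Colours give the fit over all 6 libraries without a block, the blocked fit on the replicate number and replicates 2 and 3 alone, and filled points have an adjusted p under 0.05 in limma, with *Csrp1* filled in all 3 fits.

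**Figure D4:**
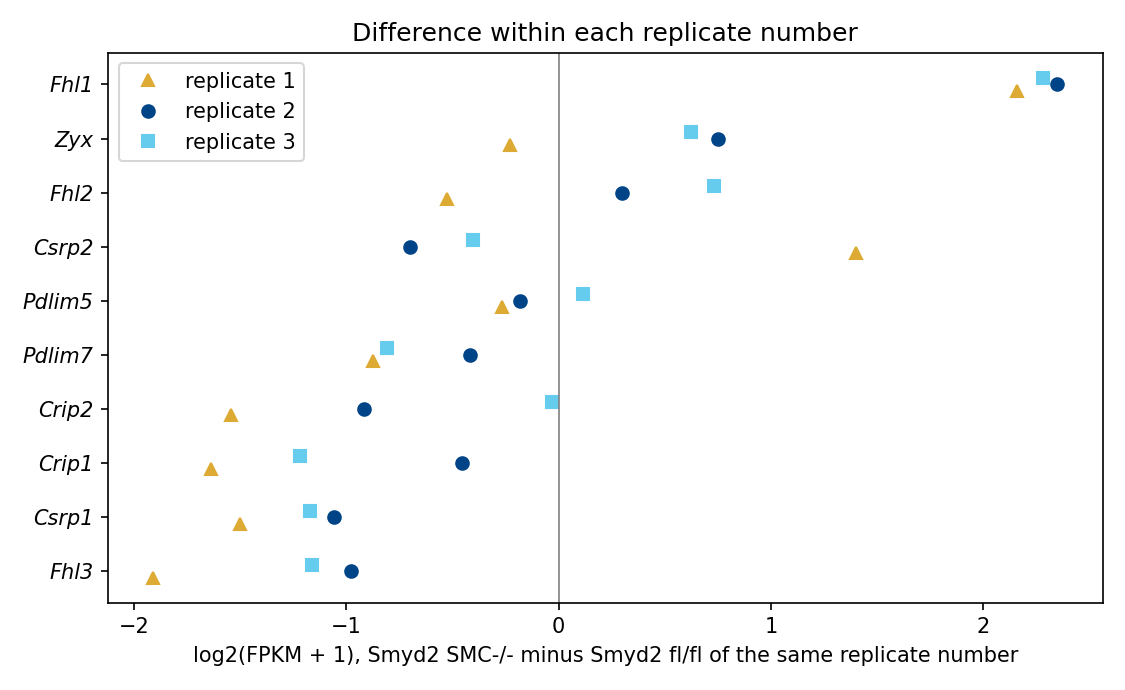
Difference in log2(FPKM + 1) between the *Smyd2* SMC-/- and the *Smyd2* fl/fl library of the same replicate number, 1 point for each replicate and LIM-domain gene. All 3 points of *Fhl1* lie above 2, and those of *Csrp2*, *Fhl2*, *Pdlim5* and *Zyx* lie on both sides of 0.

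Upstream sequence was read because *Csrp1*, *Fhl3* and *Fhl1* separated the groups or the pairs of libraries in opposite directions. *Pdlim7* separated both as well, being lower in *Smyd2* SMC-/-, and its window is not shown. *Fhl2*, whose groups overlapped, is shown as a window that holds a CArG box. RefSeq windows of 250 bases before each transcription start (GRCm38.p6) matched 9 of the 10 members, all but *Csrp2*, with 14 windows in all. They were searched on both strands for the CArG box, which serum response factor binds, for CATTCC or GGAATG, bound by TEAD factors, and for TGACTCA or TGAGTCA, bound by AP-1. A CArG box was found in 482 of all 32851 windows (1.47%) and in 3 of the 14 member windows, which belong to *Fhl1* and *Fhl2*. The TEAD letters were found in 12.6% of all windows and in 0 of the members' windows, and the AP-1 letters in 4.46% of all windows and in 1 window of *Zyx*, 121 bases upstream of its RefSeq start. The CArG box began 102 bases upstream of a start of *Fhl1*, and 96 and 31 bases upstream of 2 starts of *Fhl2*. These 4 matches of *Zyx*, *Fhl1* and *Fhl2* lay within the GENCODE spans given for the genes, and GENCODE exons covered 122 bases of the *Zyx* window, 87 of the *Fhl1* window, and 223 and 0 of the *Fhl2* windows. The median GC content was 63.2% in the member windows and 52.4% in all windows. Shown are windows of *Csrp1* (chr1:135719813-135720062, plus strand), *Fhl3* (chr4:124700449-124700698, plus strand), *Fhl1* (chrX:56779433-56779682, plus strand) and *Fhl2* (chr1:43163962-43164211, minus strand), 5′ to 3′ and ending beside the start, with the CArG box in capitals where the window holds it. A match describes these letters alone.
Csrp1: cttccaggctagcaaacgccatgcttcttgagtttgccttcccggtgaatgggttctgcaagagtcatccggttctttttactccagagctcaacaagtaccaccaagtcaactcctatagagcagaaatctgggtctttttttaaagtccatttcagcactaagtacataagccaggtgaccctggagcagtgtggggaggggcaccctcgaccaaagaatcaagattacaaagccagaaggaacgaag
Fhl3: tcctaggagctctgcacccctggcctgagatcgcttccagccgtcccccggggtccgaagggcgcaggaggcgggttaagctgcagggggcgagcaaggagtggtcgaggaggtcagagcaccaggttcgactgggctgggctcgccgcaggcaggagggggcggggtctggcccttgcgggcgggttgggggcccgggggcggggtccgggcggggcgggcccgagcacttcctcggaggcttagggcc
Fhl1: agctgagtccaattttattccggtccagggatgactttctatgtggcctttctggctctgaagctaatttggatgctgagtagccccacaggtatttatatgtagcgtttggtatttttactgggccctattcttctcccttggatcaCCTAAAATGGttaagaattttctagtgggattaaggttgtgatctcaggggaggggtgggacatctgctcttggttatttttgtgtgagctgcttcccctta
Fhl2: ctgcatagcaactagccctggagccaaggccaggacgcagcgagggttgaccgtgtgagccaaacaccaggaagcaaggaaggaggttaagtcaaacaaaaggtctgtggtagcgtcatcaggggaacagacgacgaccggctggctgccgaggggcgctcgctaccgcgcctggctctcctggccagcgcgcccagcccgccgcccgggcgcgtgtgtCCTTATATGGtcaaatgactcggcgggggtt

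For each member, the gene with a mean of at least 10 FPKM whose log2(FPKM + 1) followed it most closely over the 6 libraries was found, as a description. The libraries share their groups and the split of replicate 1, and 6527 or 6528 genes were candidates, so that high values of Pearson's r are common. The closest genes were *Aes* for *Csrp1* (r 0.999), *Zfp746* for *Csrp2* (0.993), *Man2b1* for *Fhl1* (0.997), *Hmgxb3* for *Fhl2* (0.998) and *Ddx21* for *Fhl3* (0.999). They were *Dcakd* for *Crip1* (0.994), *Tcf7l2* for *Crip2* (0.996), *Smad4* for *Pdlim5* (0.969), *Rsl1d1* for *Pdlim7* (0.996) and *Lamb2* for *Zyx* (0.990). *Ddx21*, an RNA helicase of the nucleolus, had 72.8, 46.5 and 46.9 FPKM in *Smyd2* fl/fl against 34.3, 30.3 and 29.2 FPKM in *Smyd2* SMC-/-, with replicate 1 of *Smyd2* fl/fl the highest library, as for *Fhl3*.

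Other cytoskeletal genes with LIM domains were read from a list of 43, of which 33 reached the mean FPKM for the test. In limma 3 of these were lower in *Smyd2* SMC-/- and 0 higher, against 6 and 5 at an unadjusted p under 0.05, beside 1.21% and 1.23% of all genes called and 11.2% and 9.16% unadjusted. With the replicate block *Ablim1*, named after the values were seen, was lower as well and *Ablim3* higher, beside 5.72% and 4.72% of all genes. Replicates 2 and 3 alone had 8 of the 33 lower and 6 higher in limma, beside 17.2% and 11.9% of all genes. The median log2 fold change was −0.04, beside −0.02 for all tested genes, and 0.02 beside −0.06 in replicates 2 and 3 alone. *Tes*, encoding testin of focal adhesions, had 23.5, 29.3 and 27.8 FPKM in *Smyd2* fl/fl against 11.6, 9.60 and 8.19 FPKM in *Smyd2* SMC-/-, and it fell by 1.37 on the log2 scale (adjusted p = 0.0150 in limma). *Fblim1*, encoding the filamin-binding protein migfilin, had 78.9, 66.4 and 77.3 FPKM in *Smyd2* fl/fl against 29.8, 32.2 and 38.1 FPKM in *Smyd2* SMC-/-, and it fell by 1.13 (adjusted p = 0.0166 in limma). *Lasp1*, encoding an actin-binding protein with a LIM and an SH3 domain, had 160.1, 157 and 161 FPKM in *Smyd2* fl/fl against 94.7, 112 and 101 FPKM in *Smyd2* SMC-/-, and it fell by 0.63 (adjusted p = 0.0492 in limma). None of the 3 genes overlapped between the groups. The calls of *Tes* and *Fblim1* in limma were lost without *Smyd2* fl/fl replicate 2 (adjusted p = 0.0900 and 0.0703), *Smyd2* fl/fl replicate 3 (0.0976 and 0.106), *Smyd2* SMC-/- replicate 2 (0.0836 and 0.0939) or *Smyd2* SMC-/- replicate 3 (0.0787 and 0.0610), while the log2 fold changes stayed between −1.49 and −1.26 for *Tes* and between −1.23 and −1.06 for *Fblim1*. That of *Lasp1* was lost with any of the 6 libraries left out (adjusted p from 0.0531 without *Smyd2* SMC-/- replicate 1 to 0.220 without *Smyd2* SMC-/- replicate 3 in limma), at log2 fold changes from −0.70 to −0.58, and also with no filter on low FPKM (0.0604), with rescaling to TPM (0.0774) and with quantile normalization (0.0593). For *Ablim3*, an actin-binding LIM gene picked once the values were known, the levels were 0.23, 0.21 and 0.20 FPKM in *Smyd2* fl/fl against 0.98, 1.39 and 1.31 FPKM in *Smyd2* SMC-/-, so that it passed the filter on low FPKM through the latter group alone. *Lima1*, encoding an actin cross-linker and the other of the 2 most abundant genes of the list besides *Lasp1*, had 134 ± 28.8 FPKM in *Smyd2* fl/fl against 124 ± 8.93 FPKM in *Smyd2* SMC-/- (SD, n = 3 each), with an adjusted p of 0.839 in limma.

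LIM genes whose proteins act in the nucleus, the LIM-homeodomain, LIM-only and LIM-binding genes, made a list of 18, of which 4 reached the mean for the test. In limma 0 of the 4 were lower and 0 higher (1.21% and 1.23% of all genes), and 2 and 0 at an unadjusted p under 0.05 (11.2% and 9.16% of all genes). Their median log2 fold change was −0.21, beside −0.02 for all genes, and −0.025 beside −0.06 in replicates 2 and 3 alone. *Ldb1*, encoding a scaffold that binds nuclear LIM domains, had 138, 130 and 124 FPKM in *Smyd2* fl/fl against 98.7, 75.7 and 87.6 FPKM in *Smyd2* SMC-/-. *Ldb1* did not overlap between the groups and differed by −0.58 on the log2 scale (standard error 0.137), with limma giving an adjusted p of 0.0804, or 0.0402 with the block. Without *Smyd2* SMC-/- replicate 1 the adjusted p of *Ldb1* in limma was 0.0468. *Lmo4*, a LIM-only gene, had 27.9 ± 9.12 FPKM in *Smyd2* fl/fl against 30.3 ± 12.8 FPKM in *Smyd2* SMC-/- (SD, n = 3 each), with an adjusted p of 0.947 in limma.

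Actin and adhesion proteins that bind or sit beside the LIM-domain proteins, such as α-actinins, Ena/VASP proteins, filamins and talins, made a list of 25, of which 22 were tested. In limma 0 of these were lower and 0 higher, beside 1.21% and 1.23% of all genes, and 4 and 0 at an unadjusted p under 0.05, beside 11.2% and 9.16%. The list had a median log2 fold change of −0.25, and all genes −0.02, with −0.18 and −0.06 in replicates 2 and 3 alone. With the replicate block 2 were lower in limma, *Parvb* and *Palld*, which like the next 5 genes are named after their values were seen, and in replicates 2 and 3 alone *Vasp*, *Enah* and *Ilk* were lower too and *Flnc* and *Tns1* higher. All genes had 5.72% lower with the block, and 17.2% lower and 11.9% higher in replicates 2 and 3 alone. *Flna*, encoding the actin cross-linker filamin A, had 461, 411 and 462 FPKM in *Smyd2* fl/fl against 362, 337 and 374 FPKM in *Smyd2* SMC-/-. The groups did not overlap, yet the log2 fold change of −0.31 did not pass (standard error 0.119, adjusted p = 0.211 in limma), and it was −0.19 with rescaling to TPM and −0.084 with quantile normalization. *Itgb1*, encoding integrin β1, had 315 ± 15.8 FPKM in *Smyd2* fl/fl against 321 ± 18.8 FPKM in *Smyd2* SMC-/- (SD, n = 3 each), with an adjusted p of 0.932 in limma.

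**Figure D5:**
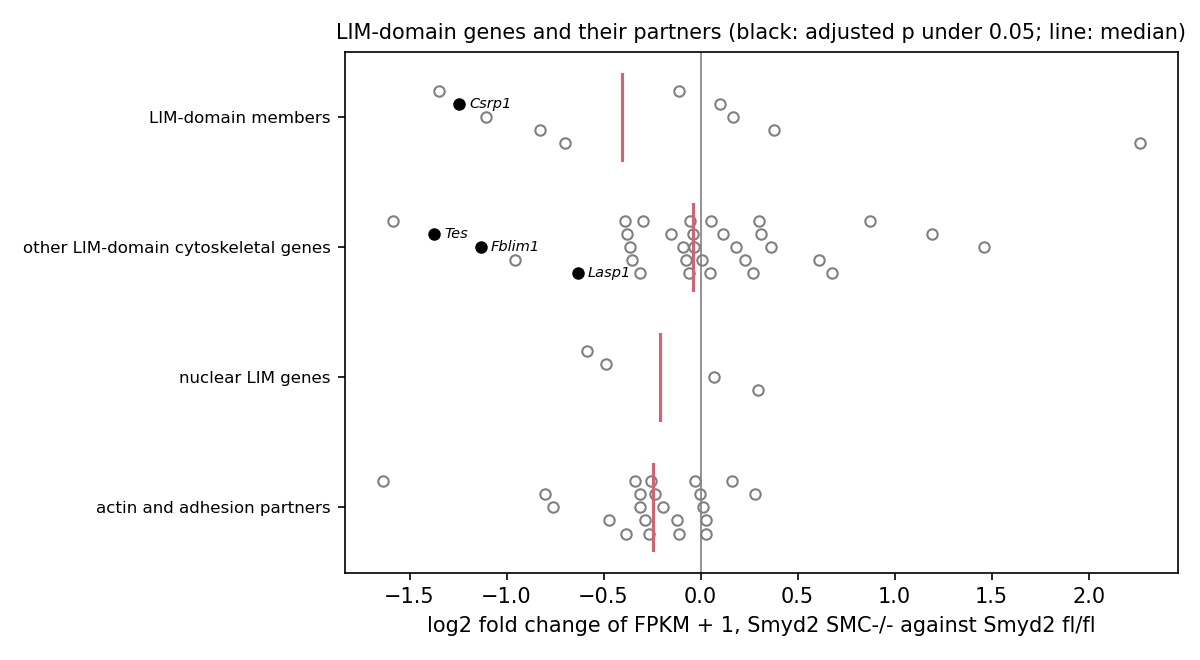
Log2 fold change of FPKM + 1, *Smyd2* SMC-/- against *Smyd2* fl/fl, for the tested genes of the 4 lists, 1 point for each gene and a red line at each list's median. Black points have an adjusted p under 0.05 in limma: *Csrp1* among the 10 LIM-domain members, and *Tes*, *Fblim1* and *Lasp1* among the other cytoskeletal LIM genes.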

How the data were processed

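The authors deposited FPKM of 18112 genes in 6 libraries, calculated with RSEM after mapping with Bowtie2 per the submitters' processing notes, with SOAPnuke and HISAT also named in the methods. Versions and genome build are not given in the sources used here. No per-sample column was unmatched. The planned design also gave a test for counts, and as the table held FPKM, log2(FPKM + 1) was tested with limma 3.58.1 in R 4.3.3 (lmFit, eBayes with trend and robust) and Benjamini-Hochberg adjustment, over 12565 genes whose mean reached 0.5 FPKM. The fits were tested on simulated data. Other calculations used Python 3.11.15, numpy 2.4.6, pandas 2.3.3, scipy 1.17.1 and matplotlib 3.10.9.

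Depth was estimated from 405 to 476 low FPKM values in each library, among 2357 genes with a known transcript length, after 80 bases were taken off each length, the offset of 0 to 200 that gave the most whole fragments. Between 68.0% and 71.5% of these values fell no more than 0.15 from a whole fragment. The estimates are approximate and cover counting error only. Gene positions came from GENCODE M21 (GRCm38) through the RefSeq transcripts in the table, and promoter windows from RefSeq.

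Replicate numbers in the labels count the samples within each group, and no label states a pairing of libraries across the groups. Deviations from the group means were correlated across genes by 0.61, 0.46 and 0.53 within replicates 1, 2 and 3, and by 0.46 and 0.44 between replicates 2 and 3 of different groups. These correlations set replicate 1 apart but hardly tell replicates 2 and 3 from each other, so that pairing these by number is an assumption. Deviations from a mean of 3 libraries also depend on each other, and a replicate 1 that stands apart in both groups affects all these values. The comparison was also fitted with replicate number as a block, which makes this assumption.

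The members and lists were chosen with earlier results of these data known. Genes named are the 10 members, *Smyd2*, the cell type markers, the gene closest to each member, and from each other list the genes called (at most 4 in each direction) and the 2 with the highest mean. Further genes of these lists stand behind small counts and were named after their values were seen. Alternatives were a pseudocount of 0.1, no filter, the block, each library left out, replicates 2 and 3 alone, TPM, quantile normalization and the cutoffs of the methods (fold change above 2, adjusted p under 0.01). For *Smyd2*, the other lists and the genes named from them these were added after seeing the data, as were the cutoffs of the methods with the block or in replicates 2 and 3 alone.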

Additional observations from a re-analysis of the deposited data

How the results depend on the processing

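With the replicate block, limma called 719 genes lower and 593 higher in *Smyd2* SMC-/-, and among the LIM-domain members 3 lower and 1 higher, with *Fhl1* at 2.26, *Fhl3* at −1.35 and *Pdlim7* at −0.70 now past the threshold. It called 1 nuclear LIM gene and 2 partners lower and, of the other cytoskeletal LIM genes, *Ablim1* lower and *Ablim3* higher beyond those called without it. Among *Smyd2*, the cell type markers and the genes of the 4 lists, the replicate block changed the calls of *Smyd2*, *Ldb1*, *Parvb*, *Palld*, *Ablim1* and *Ablim3* as well, and changed no other call. In replicates 2 and 3 alone the numbers were 2156 and 1494 genes, 4 and 3 members, 8 and 6 other cytoskeletal LIM genes, 1 nuclear LIM gene lower, and 5 partners lower and 2 higher. The log2 fold changes there were 2.31 for *Fhl1*, 0.52 for *Fhl2*, −1.07 for *Fhl3*, −0.61 for *Pdlim7* and 0.69 for *Zyx*, and that of *Csrp2* reversed to −0.55. Rescaling to TPM gave 99 genes lower and 247 higher and 1 other cytoskeletal LIM gene higher (*Ablim3*), and reversed *Pdlim5* (0.011) and *Lima1* (0.031). A pseudocount of 0.1 and no filter on low FPKM each gave 1 other cytoskeletal LIM gene higher, again *Ablim3*. At the cutoffs of the methods 26 genes were lower and 27 higher, with 0 members and 0 other cytoskeletal LIM genes lower in limma. At an unadjusted p under 0.05 with any fold change, 3 members and 6 other cytoskeletal LIM genes were lower, beside 11.2% of all genes. With the cutoffs of the methods and the block, limma had *Fhl1* as 1 member higher and 0 lower (0.382% and 0.223% of all genes). With the block, 5 members were lower at an unadjusted p under 0.05 (17.4% of all genes). The cutoffs in replicates 2 and 3 alone left 2 lower, *Csrp1* and *Fhl3*, and 1 higher, *Fhl1* (2.35% and 2.84% of all genes).

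With each library left out in turn, genes lower ran from 16 (without *Smyd2* fl/fl replicate 2) to 313 (without *Smyd2* SMC-/- replicate 1) and genes higher from 16 (without *Smyd2* fl/fl replicate 3) to 373 (without *Smyd2* SMC-/- replicate 1). Members lower ran from 0 to 2, other cytoskeletal LIM genes from 0 to 2 lower and 0 to 3 higher (*Ablim3*, *Lmcd1* and *Prickle1* without *Smyd2* SMC-/- replicate 1, named after their values were seen, of which *Ablim3* and *Prickle1* passed the filter only through *Smyd2* SMC-/-), nuclear LIM genes lower from 0 to 1, and partners lower from 0 to 2. The log2 fold change ran from −1.38 to −1.13 for *Csrp1*, −0.35 to 0.34 for *Csrp2*, −1.86 to −0.17 for *Crip1*, −1.17 to −0.29 for *Crip2*, −0.15 to 0.73 for *Fhl2*, −1.54 to −0.97 for *Fhl3* and −0.28 to 0.041 for *Pdlim5*, from −0.28 to 0.012 for *Lima1*, −0.20 to 0.47 for *Lmo4* and −0.0051 to 0.076 for *Itgb1*, and the difference in the log2 ratio of *Crip1* to *Crip2* from −1.48 to 0.84. Where a fit had fewer samples that is by its construction, and otherwise the cause was not tested. The exact tests of 3 against 3 could not reach 0.05. Among the members counting error was largest for *Crip2*, with about 61 fragments in its lowest library.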
